A study of Mus musculus with 6 samples.

Results

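Tcf7, Lef1, Ccr7, Il7r, Dapl1 and Klf2, genes known from naive and stem-like T cells, were followed in single cells of the fibrotic mouse lung. They were taken by symbol and are 6 of the 32285 genes in the deposited matrices. The question was whether any lower level of Tcf7 under CTLA4 blockade was shared by the other 5 genes. The study that reported these data describes a marked increase of Tcf7, and of Icos, in its T cell clusters under ipilimumab. It compared clusters of cells after correction for ambient RNA, whereas here uncorrected counts were summed per mouse over gated cells. All 6 mice were 12-week-old males with the hCTLA4 genotype, a C57BL/6-based line in which part of the mouse gene is replaced by human CTLA4 so that ipilimumab, an antibody against human CTLA4, can bind. All received bleomycin, which injures the lung and leaves fibrosis, at 1.25 U/kg in 2 doses given 2 weeks apart. Treatment began on day 21 after the second dose. An IgG1 isotype control antibody was given to 3 mice. The other 3 were given ipilimumab at 5 mg/kg in 2 doses a week over 4.5 weeks. The right lung of each mouse gave its own 10x Genomics 3' library, which counts transcripts by unique molecular identifiers (UMIs). No uninjured mice were among the samples analysed here, so every comparison of treatment lies within bleomycin injury.

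Naive T cells circulate between blood and lymphoid organs and persist in a resting state until they meet antigen. TCF1, encoded by Tcf7, and LEF1 are related HMG-box transcription factors that maintain this state and the capacity for self-renewal of memory and stem-like T cells. KLF2 is a transcription factor of quiescence and trafficking, CCR7 is the chemokine receptor that guides cells into lymph nodes, and the IL-7 receptor alpha chain, encoded by Il7r, carries a survival signal. Dapl1 is a transcript enriched in naive T cells. As T cells become effector cells, these genes are known to be lowered.

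In GRCm38, Tcf7 lies on chromosome 11 at chr11:52252371-52283014 (minus strand) and Ccr7 on the same chromosome at chr11:99144196-99155077 (minus strand). Lef1 lies at chr3:131110471-131224356 (plus strand), Il7r at chr15:9505788-9530176 (minus strand), Dapl1 at chr2:59484653-59505020 (plus strand) and Klf2 at chr8:72319033-72321656 (plus strand). Tcf7 and Lef1 each overlap 2 annotated genes, of which 1 each was in the feature list. RefSeq promoter windows, from 250 bases before to 50 bases after an annotated start in GRCm38.p6, were found for 5 of the 6 genes. They were searched on both strands for CTTTGA, the core that TCF1 and LEF1 bind, and for GTAAACA, the core of forkhead factors such as FOXO1. CTTTGA was present in 16.0% of 32851 windows of the same length and GTAAACA in 3.65%. Lef1 had 4 windows, Tcf7 had 2, and Il7r, Dapl1 and Klf2 had 1 each, while none was found for Ccr7. All 6 genes were called lower in both splits of T cells described below, with or without a match. Whether a match bears on the levels was not tested. The 3 windows with a match are shown, and the capitals mark the match.
Tcf7, chr11:52282546-52282845, minus strand, GTAAACA: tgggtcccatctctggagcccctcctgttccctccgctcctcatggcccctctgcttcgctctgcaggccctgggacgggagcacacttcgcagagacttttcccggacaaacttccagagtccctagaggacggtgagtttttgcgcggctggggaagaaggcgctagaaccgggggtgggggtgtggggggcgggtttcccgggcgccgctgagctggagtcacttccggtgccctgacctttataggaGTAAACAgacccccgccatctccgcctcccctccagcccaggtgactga
Lef1, chr3:131156044-131156343, plus strand, CTTTGA read from the other strand: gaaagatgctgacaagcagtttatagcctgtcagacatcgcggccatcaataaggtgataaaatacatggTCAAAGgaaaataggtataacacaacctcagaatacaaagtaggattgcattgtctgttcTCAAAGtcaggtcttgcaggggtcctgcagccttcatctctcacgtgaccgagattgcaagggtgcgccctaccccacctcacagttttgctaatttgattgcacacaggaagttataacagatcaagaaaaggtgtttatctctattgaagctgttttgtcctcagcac
Dapl1, chr2:59484403-59484702, plus strand, GTAAACA: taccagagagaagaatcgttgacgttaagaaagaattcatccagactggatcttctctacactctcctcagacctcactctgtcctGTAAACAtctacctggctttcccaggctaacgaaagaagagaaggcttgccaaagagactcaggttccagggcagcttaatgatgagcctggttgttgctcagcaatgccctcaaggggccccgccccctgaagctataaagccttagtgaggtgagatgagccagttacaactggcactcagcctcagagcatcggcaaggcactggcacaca
The Lef1 window belongs to a start inside the gene and holds 2 matches. The other windows of these genes, and those of Il7r and Klf2, held neither run of letters. A match describes the letters and not a bound site.

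After cell calling and quality control, the IgG1 mice gave 4293, 4213 and 3243 cells, while 4141, 3967 and 4037 came from the ipilimumab mice. Total UMIs per library were between 37666042 and 48612412, and any pair of libraries shared at most 8 cell barcodes. Ipilimumab replicate 1 stood apart in its barcodes of at least 100 UMIs, called cells included, with 22056 against 4834 to 6230 elsewhere. A T cell was a cell with at least 2 UMIs of Cd3e, Cd3d and Cd3g together, and 857, 746 and 862 were found under IgG1 and 830, 917 and 974 under ipilimumab. The T gate held 1574 CD4, 112 Treg (Cd4 and Foxp3), 2043 CD8, 1336 double-negative and 121 double-positive cells over the 6 mice. A missing Cd4 or Cd8 UMI can also be a missed transcript, so the double-negative gate is not a lineage. The share of T cells that also carried at least 2 markers of another cell type was 7.47%, 7.91% and 7.77% under IgG1 and 13.01%, 7.85% and 11.5% under ipilimumab. Alveolar macrophage markers in T cells ranged from 0.0383 to 0.106 UMIs per 10000 under IgG1 and from 0.172 to 0.207 under ipilimumab. A set of 5 transcripts abundant in other lung cells (Lyz2, S100a8, S100a9, Sftpc and Scgb1a1) reached 0.845 to 2.68 UMIs per 10000 in T cells under IgG1 and 3.03 to 16.2 under ipilimumab. For some of the genes, treatment values with the marker-carrying cells left out are given below in all T, CD8 and Treg cells. They are not given for CD4 T cells, the double-negative gate or the split gates.

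Levels are UMIs of the gene per 1000000 UMIs summed over all cells of a gate in a mouse (CPM). Such a sum cannot tell fewer expressing cells from less RNA per cell. In all T cells, Tcf7 stood at 363, 263 and 383 CPM in the IgG1 mice and at 273, 268 and 256 CPM in the ipilimumab mice. The groups overlapped through IgG1 replicate 2, the only IgG1 mouse in the ipilimumab range. Lef1 was at 1594, 1327 and 1477 CPM under IgG1 and at 1136, 1264 and 1197 CPM under ipilimumab, so that every ipilimumab mouse lay below every IgG1 mouse. Of the 6 genes, 1 (Lef1) had groups without overlap in all T cells, where 5.28% of all 12524 genes tested were lower under ipilimumab without overlap. Dapl1 was at 131, 93.8 and 137 CPM under IgG1 and at 103, 115 and 82.4 CPM under ipilimumab, with overlapping groups.

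The receptors and Klf2 did not separate the groups either. Ccr7 was at 409, 329 and 368 CPM under IgG1 and at 305, 398 and 367 CPM under ipilimumab. Il7r was at 411, 423 and 474 CPM and at 368, 469 and 428 CPM, respectively. Klf2 was at 700, 512 and 737 CPM under IgG1 and at 643, 725 and 568 CPM under ipilimumab. For these 3 genes, as for Tcf7 and Dapl1, the groups overlapped, and the highest ipilimumab mouse exceeded at least 1 IgG1 mouse in each.

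**Figure D1:**
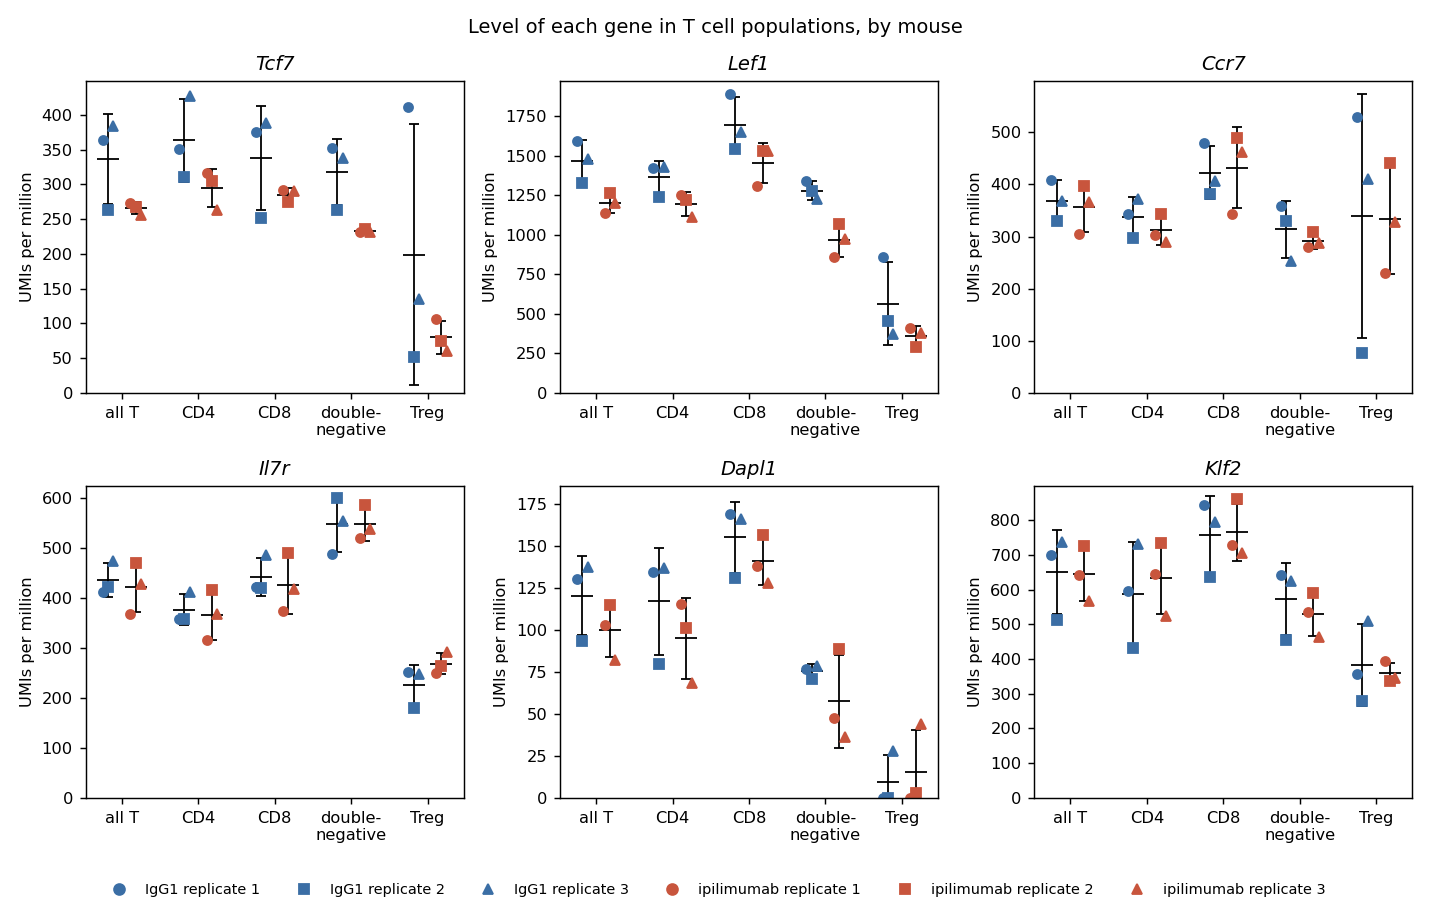
Level of each gene in UMIs per 1000000 (vertical axes, from 0) in all T cells and 4 T cell gates (horizontal axes), with 1 point for each mouse and black bars for the group mean ± SD (n = 3 mice). In all T cells the Lef1 points of the ipilimumab mice (1136 to 1264) lie below those of the IgG1 mice (1327 to 1594), while the groups overlap in the other genes.

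None of the 6 genes passed the test for treatment. edgeR's quasi-likelihood test on UMIs summed per mouse, with Benjamini-Hochberg adjustment and a call at adjusted p below 0.05 and an absolute log2 fold change above 0.3, called 0 of 12524 genes in T cells (percent called, 0), with 1085 genes at an unadjusted p below 0.05. DESeq2 called 97 genes, none of them among the 6. Replicates were separate mice, so the p-values measure the spread between mice. The log2 fold change of ipilimumab over IgG1 was -0.36 ± 0.138 (SE; adjusted p = 0.536 by edgeR) for Tcf7 and -0.30 ± 0.0998 (adjusted p = 0.513) for Lef1. Dapl1 had a value of -0.28 ± 0.172, with an adjusted p of 0.690 by edgeR. The values of Ccr7 (-0.06 ± 0.131), Il7r (-0.06 ± 0.121) and Klf2 (-0.03 ± 0.156) were smaller than their errors. The difference between Tcf7 and the other genes was itself not tested.

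The Tcf7 value rested in size on single mice. Without IgG1 replicate 2 its log2 fold change was -0.51 (edgeR adjusted p = 0.153), and without IgG1 replicate 3 it was -0.25 (edgeR adjusted p = 0.882). When T cells carrying markers of another cell type were left out, Tcf7 was at -0.29 and Lef1 at -0.23 on the log2 scale. The adjusted p of Tcf7 ranged from 0.153 to 0.951 and that of Lef1 from 0.170 to 0.951 over all alternative settings.

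Within CD4 T cells, Tcf7 was at 351, 310 and 428 CPM under IgG1 and at 316, 305 and 264 CPM under ipilimumab (log2 fold change -0.33 ± 0.146). Lef1 was at 1420, 1241 and 1427 CPM and at 1252, 1221 and 1109 CPM, respectively (-0.22 ± 0.109). In both genes the groups overlapped because ipilimumab replicate 1 lay above IgG1 replicate 2. Tcf7 was at -0.43 without IgG1 replicate 2 and at -0.17 without IgG1 replicate 3, and Lef1 was at -0.28 without IgG1 replicate 2 and at -0.15 without ipilimumab replicate 3. In CD8 T cells Tcf7 was at 375, 252 and 388 CPM under IgG1 and at 292, 274 and 290 CPM under ipilimumab (-0.24 ± 0.152). Lef1 was at 1891, 1544 and 1647 CPM and at 1310, 1531 and 1526 CPM, respectively (-0.21 ± 0.121). Tcf7 overlapped in CD8 T cells through IgG1 replicate 2, and Lef1 did not overlap, in a gate where 5.14% of genes were lower under ipilimumab without overlap. In CD8 T cells Tcf7 was at -0.42 without IgG1 replicate 2, -0.17 without IgG1 replicate 1 and -0.12 without IgG1 replicate 3. Lef1 was at -0.28 without ipilimumab replicate 2, -0.12 without IgG1 replicate 1 and -0.11 without ipilimumab replicate 1. Endothelial markers in CD8 T cells ranged from 0.410 to 0.629 UMIs per 10000 under IgG1 and from 0.690 to 1.002 under ipilimumab, without overlap. With the marker-carrying cells left out, Lef1 in CD8 T cells was at -0.14. No gene was called by edgeR among 9820 tested in CD4 T cells (467 at an unadjusted p below 0.05; DESeq2, 12; percent called, 0) or 10312 in CD8 T cells (485; DESeq2, 24; percent called, 0). The treatment effect in CD8 minus that in CD4 T cells was between -0.08 for Klf2 and 0.20 for Dapl1, and edgeR's adjusted p was 1 for all 6 genes.

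Treg cells were few, from 10 to 29 per mouse, and 1 IgG1 mouse set much of their difference. Tcf7 was at 411, 51.5 and 135 CPM under IgG1 and at 106, 74.0 and 59.9 CPM under ipilimumab (log2 fold change -1.08 ± 0.595). IgG1 replicate 1, with 10 Treg cells, held the highest value, and the other IgG1 mice spanned the ipilimumab range. Tcf7 was at -0.16 without that mouse and at -1.70 without IgG1 replicate 2. Lef1 had a value of -0.63 ± 0.305, with -0.25 without IgG1 replicate 1 and -0.87 without IgG1 replicate 3, and Dapl1 was too low to be tested. The only gene called in Treg cells was Mctp1, a gene outside the group studied here (edgeR adjusted p = 0.0161; percent called, 0.0199), and the number of called genes was 1 without ipilimumab replicate 1 and 0 when any other single mouse was left out.

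In double-negative T cells both Tcf7 and Lef1 separated the groups. Tcf7 was at 352, 263 and 338 CPM under IgG1 and at 231, 235 and 231 CPM under ipilimumab. Lef1 was at 1337, 1278 and 1223 CPM under IgG1 and at 857, 1070 and 975 CPM under ipilimumab. In both genes every ipilimumab mouse was below every IgG1 mouse. Of 10885 genes with at least 30 UMIs in this gate, 6.33% were lower without overlap. These values were not tested further. Ccr7, Il7r, Dapl1 and Klf2 overlapped in this gate.

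At equal depth in all T cells, counting cells in place of UMIs also gave the largest differences for Lef1 and Tcf7. The order of the other genes was not the same. To compare equal depths, each cell was thinned at random to 2000 UMIs, which left out 8 T cells under IgG1 and 17 under ipilimumab. A Lef1 UMI was then found in 77.0%, 74.6% and 77.3% of T cells under IgG1 and in 66.1%, 68.1% and 67.5% under ipilimumab. The exact permutation test gave a two-sided p of 0.1, the smallest that 3 against 3 mice allow, so that no share could pass 0.05. How many other genes separated the groups in this way was not counted. A Tcf7 UMI was found in 46.2% ± 5.64 of T cells under IgG1 and in 38.6% ± 1.27 under ipilimumab (SD, n = 3; exact p = 0.2). In B cells, which lack Tcf7, the share was 0.185% and 0.284%, respectively. Ipilimumab minus IgG1 was -1.71 points for Dapl1, -3.16 for Il7r, -3.40 for Ccr7 and -3.83 for Klf2, with exact p-values between 0.2 and 0.6. In thinned CD4 T cells, Ccr7 was found in 43.9% ± 2.42 under IgG1 and in 37.6% ± 4.16 under ipilimumab (exact p = 0.1). In the same cells Lef1 was at 76.1% and 66.2% (exact p = 0.1) and Tcf7 at 49.3% and 44.2% (exact p = 0.3). In CD8 T cells Ccr7 was at 46.9% in both groups. Without thinning, Tcf7 was found in 82.4% and 76.0% of T cells, Lef1 in 90.03% and 83.1%, and Ccr7 in 69.8% and 62.1% (exact p = 0.1 for each). There ipilimumab minus IgG1 was largest in size for Ccr7 (-7.68 points), followed by Lef1 (-6.98) and Tcf7 (-6.43). Median UMIs per T cell were between 7943 and 10132 under IgG1 and between 8133 and 9253 under ipilimumab.

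Cells carrying several of the 6 genes at once were counted in the thinned cells. At least 3 of the 6 genes were found in 62.8% ± 7.44 of CD4 T cells under IgG1 and in 53.5% ± 4.19 under ipilimumab (exact p = 0.3). In CD8 T cells the shares were 68.3% ± 4.11 and 61.9% ± 4.42 (exact p = 0.1). None of the 6 was found in 3.06% ± 0.326 of CD8 T cells under IgG1 and in 4.28% ± 0.591 under ipilimumab (exact p = 0.1).

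The 6 genes were lower in cells with effector or activation markers in both splits of the T cells, in every mouse except for Dapl1 in CD8 T cells of IgG1 replicate 3 (165 CPM in negative and 167 in positive cells). CD8 T cells were split by at least 2 UMIs of Ccl5 and Nkg7, a chemokine and a granule protein of cytotoxic cells, and CD4 T cells by at least 2 UMIs of S100a4, Itgb1 and Icos, genes of activated and memory cells. In the tests between gates the mouse was kept as a block. All 6 genes were lower in Ccl5/Nkg7-positive than in negative CD8 T cells, where 20.3% of 8823 genes were called and 7.98% were called lower. The change was largest for Ccr7 (log2 fold change -0.82 ± 0.0702, edgeR adjusted p = 1.43e-08) and Lef1 (-0.81 ± 0.0550, adjusted p = 4.05e-10). Il7r followed at -0.63 ± 0.0778, Tcf7 at -0.47 ± 0.0624, Dapl1 at -0.44 ± 0.0875 and Klf2 at -0.38 ± 0.0557. With the split at 1 UMI, Dapl1 (-0.16) and Klf2 (-0.28) were no longer called.

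All 6 genes were also lower in S100a4/Itgb1/Icos-positive than in negative CD4 T cells, where 35.9% of 8085 genes were called and 15.7% were called lower. Dapl1 fell by 1.58 ± 0.107 on the log2 scale (edgeR adjusted p = 1.83e-10), Lef1 by 1.39 ± 0.0699 and Ccr7 by 1.34 ± 0.110. Klf2 (-0.76 ± 0.0649), Il7r (-0.72 ± 0.0746) and Tcf7 (-0.71 ± 0.0842) changed less. Tcf7 was at 278, 283 and 393 CPM in positive and 460, 366 and 470 CPM in negative CD4 T cells of the IgG1 mice. In the ipilimumab mice it was at 266, 274 and 227 CPM in positive and 443, 359 and 371 CPM in negative cells. Tcf7 was lower in the positive cells of every mouse. Positive cells were the deeper ones in each mouse for both splits, with medians in CD4 T cells of 7532 to 9252 UMIs against 7138 to 8807 in negative cells. The part of depth in these differences was not tested.

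**Figure D2:**
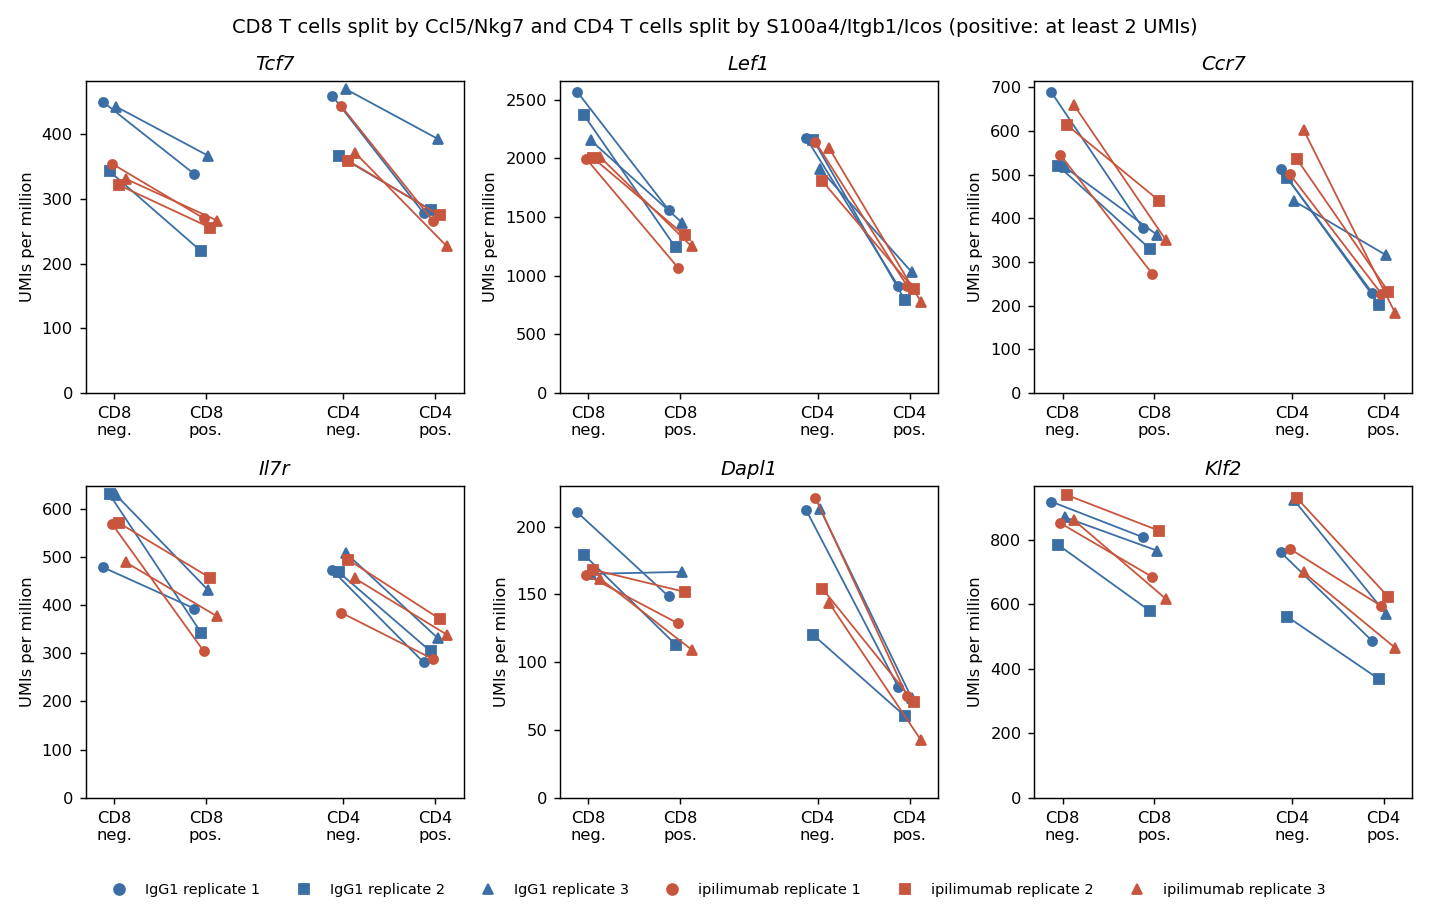
Level of each gene in UMIs per 1000000 (vertical axes, from 0) in negative and positive CD8 T cells, split by Ccl5 and Nkg7, and in negative and positive CD4 T cells, split by S100a4, Itgb1 and Icos, with 1 line for each mouse. All lines fall from negative to positive cells except that of Dapl1 in CD8 T cells of IgG1 replicate 3 (165 to 167).

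A list of 20 further genes of quiescence was examined beside the 6. In the CD8 split 12 of 20 were called lower and 1 higher, with a median of -0.50 against -0.01 over all genes. Rflnb (-1.03 ± 0.105), Igfbp4 (-0.91 ± 0.108) and Satb1 (-0.72 ± 0.0590), a chromatin organizer of T cells, were among those that fell, and Cd27 (0.37 ± 0.0832), a costimulatory receptor, was the gene that rose. In the CD4 split 17 of 20 were called lower and 1, Slamf6 (0.41 ± 0.118), higher. Of 22 effector genes, 19 of 20 tested rose in the CD8 split and 13 of 15 in the CD4 split. That list holds the 5 genes that made the splits, so its direction is in part fixed by them.

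With the T cells divided this way, the treatment values were as follows. S100a4/Itgb1/Icos-positive cells made up 48.0%, 57.9% and 48.6% of CD4 T cells under IgG1 and 65.3%, 57.3% and 68.1% under ipilimumab (exact p = 0.2). Ipilimumab replicates 1 and 3 were above all IgG1 mice, and replicate 2 was inside their range. Replicates 1 and 3 also had the largest shares of T cells carrying markers of another type (13.01% and 11.5%). In CD4 T cells the abundant lung transcripts listed above were at 0.301 to 3.48 UMIs per 10000 under IgG1. Under ipilimumab they were at 2.24, 4.86 and 46.0. Over other filters and gates, including leaving out marker-carrying cells, the share differed by 8.56 to 13.1 points. The part of RNA from other cells in it was not tested. Ccl5/Nkg7-positive cells made up 65.4% ± 1.97 of CD8 T cells under IgG1 and 65.4% ± 7.06 under ipilimumab (exact p = 1). Inside the gates, Lef1 in negative CD8 T cells was at 2568, 2368 and 2152 CPM under IgG1 and at 1995, 2003 and 2011 CPM under ipilimumab, without overlap. In that gate 6.53% of 9096 genes were lower without overlap. In positive CD4 T cells, where Tcf7 was at 278, 283 and 393 CPM under IgG1 and at 266, 274 and 227 CPM under ipilimumab, its groups did not overlap either, and 4.25% of 10782 genes were lower without overlap. Tcf7 overlapped in the other 3 gates, and Lef1 overlapped in the 3 gates other than negative CD8 T cells. These comparisons inside the splits were made after the data were seen and carry no test.

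CD8 and CD4 T cells differed in 4 of the 6 genes, in a comparison where 19.1% of 10012 genes were called and 8.35% were called higher in CD8. Dapl1 (0.53 ± 0.0897, edgeR adjusted p = 0.00128), Ccr7 (0.42 ± 0.0747), Klf2 (0.36 ± 0.0641) and Lef1 (0.32 ± 0.0548) were higher in CD8 T cells. Il7r stood at 0.25 ± 0.0404, past the adjusted threshold (edgeR, 0.000904) but under the fold limit, and Tcf7 at -0.05 ± 0.0634. The Lef1 call was lost without ipilimumab replicate 3 (0.29) without T cells carrying markers of another type (0.27) or at a mitochondrial limit of 5% (0.29), and the Klf2 call without the mouse as a block.

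Treg cells were lower than other CD4 T cells in 5 of the 6 genes, where 10.3% of 8321 genes were called and 4.81% were called lower. Dapl1 fell by 2.94 ± 0.486 on the log2 scale (edgeR adjusted p = 0.000609), Tcf7 by 1.71 ± 0.244 and Lef1 by 1.65 ± 0.143. Klf2 (-0.80 ± 0.118) and Il7r (-0.67 ± 0.129), which Treg cells are known to carry at a low level, were also lower. Ccr7 was at -0.20 ± 0.215 and was not called, with levels in Treg cells between 77.3 and 530 CPM. Of the quiescence list, 10 of 20 genes were called lower in Treg cells, led by Igfbp4 (-4.02 ± 0.373), and Cd27 (0.85 ± 0.149) and Foxo1 (0.52 ± 0.142) were called higher.

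**Figure D3:**
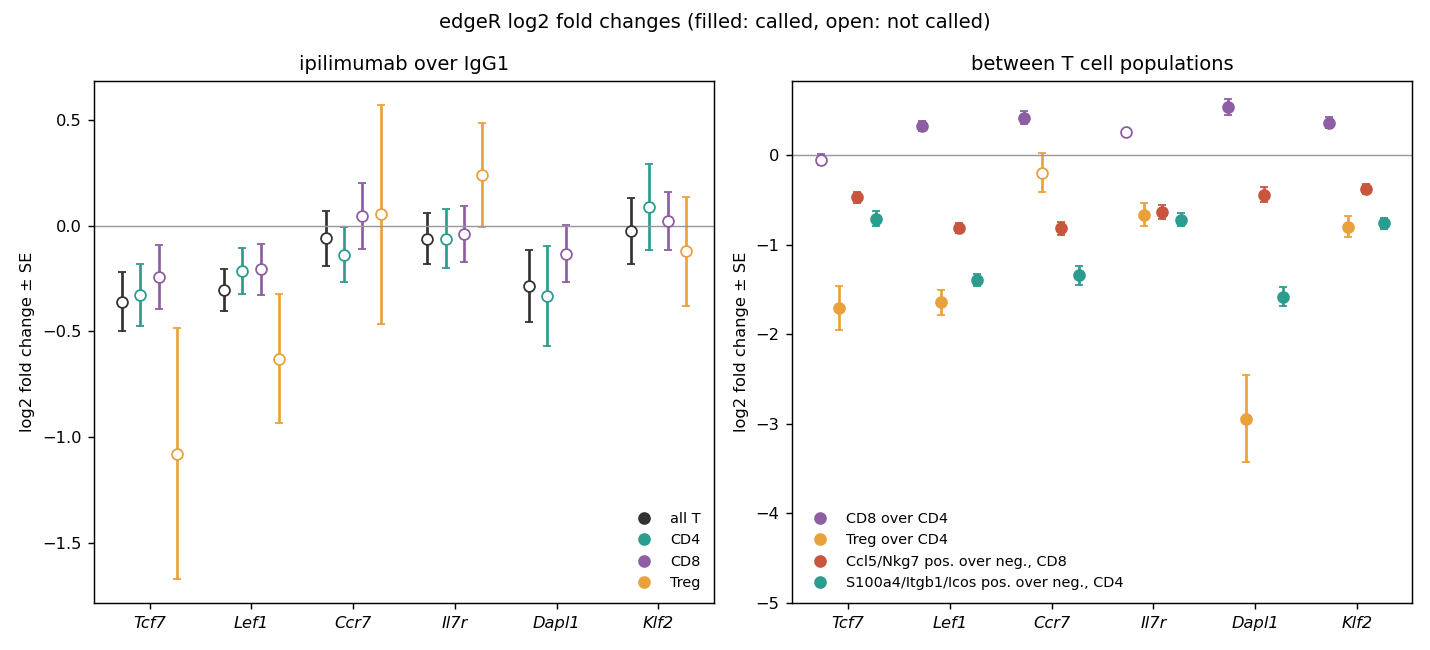
edgeR log2 fold changes with SE bars for the 6 genes: left, ipilimumab over IgG1 in all T, CD4, CD8 and Treg cells; right, differences between T cell gates within mice, filled where called. All points on the left are open, while the 12 points of the positive over negative splits on the right are filled and below 0.

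The quiescence list had no called gene between treatments. In all T cells 19 of its 20 genes had a value below 0, with a median of -0.15 against 0.00 over all genes, and 19 of 22 effector genes had a value above 0, with a median of 0.26. The smallest unadjusted p-values belonged to Actn1 (-0.34 ± 0.105), Nsg2 (-0.37 ± 0.156), Klf3 (-0.23 ± 0.125) and Bcl2 (-0.29 ± 0.158) among the quiescence genes. Among the effector genes they belonged to Zeb2 (0.85 ± 0.191), Itgb1 (0.63 ± 0.215), Cd44 (0.36 ± 0.144) and S100a4 (0.59 ± 0.242). In CD4 T cells the medians were -0.17 and 0.34, and in CD8 T cells -0.06 and 0.11, respectively.

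Single T cells tended to carry the genes in pairs. In thinned CD4 T cells, Ccr7 was found in 51.3% of Lef1-positive and 14.7% of Lef1-negative cells, a mean log2 odds ratio of 2.60 ± 0.485 (SD, n = 6 mice) that was positive in all 6 mice. Dapl1 was found in 18.7% and 2.64% of these cells, respectively (2.97 ± 0.905). In CD8 T cells the pair of Lef1 and Ccr7 had a log2 odds ratio of 2.24 ± 0.246 and the pair of Lef1 and Il7r one of 1.71 ± 0.510. Tcf7 was linked to Lef1 at 1.35 ± 0.290 in CD4 and 1.03 ± 0.378 in CD8 T cells. Tcf7 and Klf2 had no constant sign in CD8 T cells (-0.06 ± 0.316, positive in 3 of 6 mice). These are descriptions, since all genes of a cell share its capture.

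Across 13 gated cell types with at least 10 cells in at least 3 mice, the 6 genes were not equally specific to T cells. Of 72 pairs of neighbours in the order of levels, 0 had an adjusted p below 0.05 in the exact sign-flip test over mice, whose smallest adjusted p was 0.141, while 16 had an unadjusted p below 0.05. With 6 mice this test cannot go below an unadjusted p of 0.03125. At that floor 16 of 72 pairs cannot pass the adjustment, whatever the size of their gap. Tcf7 was highest in CD4 (329 ± 55.8 CPM, SD, n = 6), CD8 (312) and double-negative (275) T cells, then in Treg (140) and NK cells (44.5 CPM), and was at 1.0 to 2.0 CPM in B cells. Lef1 ran from CD8 (1575) through CD4 (1279), double-negative (1123) and Treg cells (461) to NK cells (265) and B cells (29.7 CPM). Dapl1 was the most restricted, with 148 CPM in CD8, 106 in CD4, 66.5 in double-negative and 12.5 in Treg cells, and at most 1.63 CPM on average elsewhere. The gap from NK to endothelial cells for Tcf7, and that from NK to B cells for Lef1, had the same sign in all 6 mice. In NK cells mean Lef1 was at 244 ± 27.0 CPM under IgG1 and 285 ± 5.52 CPM under ipilimumab (SD), without overlap. How many other genes were higher in this way in NK cells was not counted. Neither these levels nor their contrast with T cells were tested. The thinned shares of NK cells with a Lef1 UMI were 30.4% and 36.3%, respectively (exact p = 0.2).

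Ccr7, Il7r and Klf2 reached beyond T cells. Ccr7 was at 427 CPM in CD8 T cells and 369 ± 19.4 CPM in B cells, a pair whose difference was within the spread between mice (higher in CD8 T cells in 5 of 6 mice, adjusted exact p = 0.352). Mature dendritic cells, which use CCR7 to leave the lung, held 3226 CPM in 37 cells pooled over the mice. Il7r was highest in double-negative (548), CD8 (434) and CD4 (371 CPM) T cells, and 43 ILC2 cells, lymphoid cells that depend on IL-7, pooled to 678 CPM. In C1q macrophages Il7r was at 99.99 and 33.2 CPM in the 2 IgG1 mice with at least 10 cells and at 88.8, 45.7 and 352 CPM in the ipilimumab mice. The same ipilimumab replicate 3 had the highest Il7r in alveolar macrophages (43.6 CPM against 0.2 to 1.9 in the others) and in classical monocytes (68.6 against 2.08 to 19.98).

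Klf2 was found at similar levels in CD8 T (762), endothelial (739 ± 313), NK (718), B (665) and CD4 T cells (611 CPM), and no neighbouring pair in this order had the same sign in all 6 mice. Endothelial cells, in which KLF2 responds to blood flow, had 738, 1260 and 806 CPM of Klf2 under IgG1 and 421, 798 and 408 CPM under ipilimumab, with overlap. After thinning, 65.8%, 80.0% and 68.4% of endothelial cells had a Klf2 UMI under IgG1 and 45.6%, 54.7% and 45.0% under ipilimumab. The exact p was 0.1, the smallest that 3 against 3 mice allow. How many other genes separated the groups in this way was not counted. Thinning left out 86 endothelial cells under IgG1 and 202 under ipilimumab. IgG1 replicate 2 and ipilimumab replicate 3 were the lowest pair in all T cells (512 and 568 CPM), B cells (532 and 485 CPM) and alveolar macrophages (39.8 and 41.4 CPM), whereas IgG1 replicate 2 was the highest mouse in endothelial cells. The cause was not tested.

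**Figure D4:**
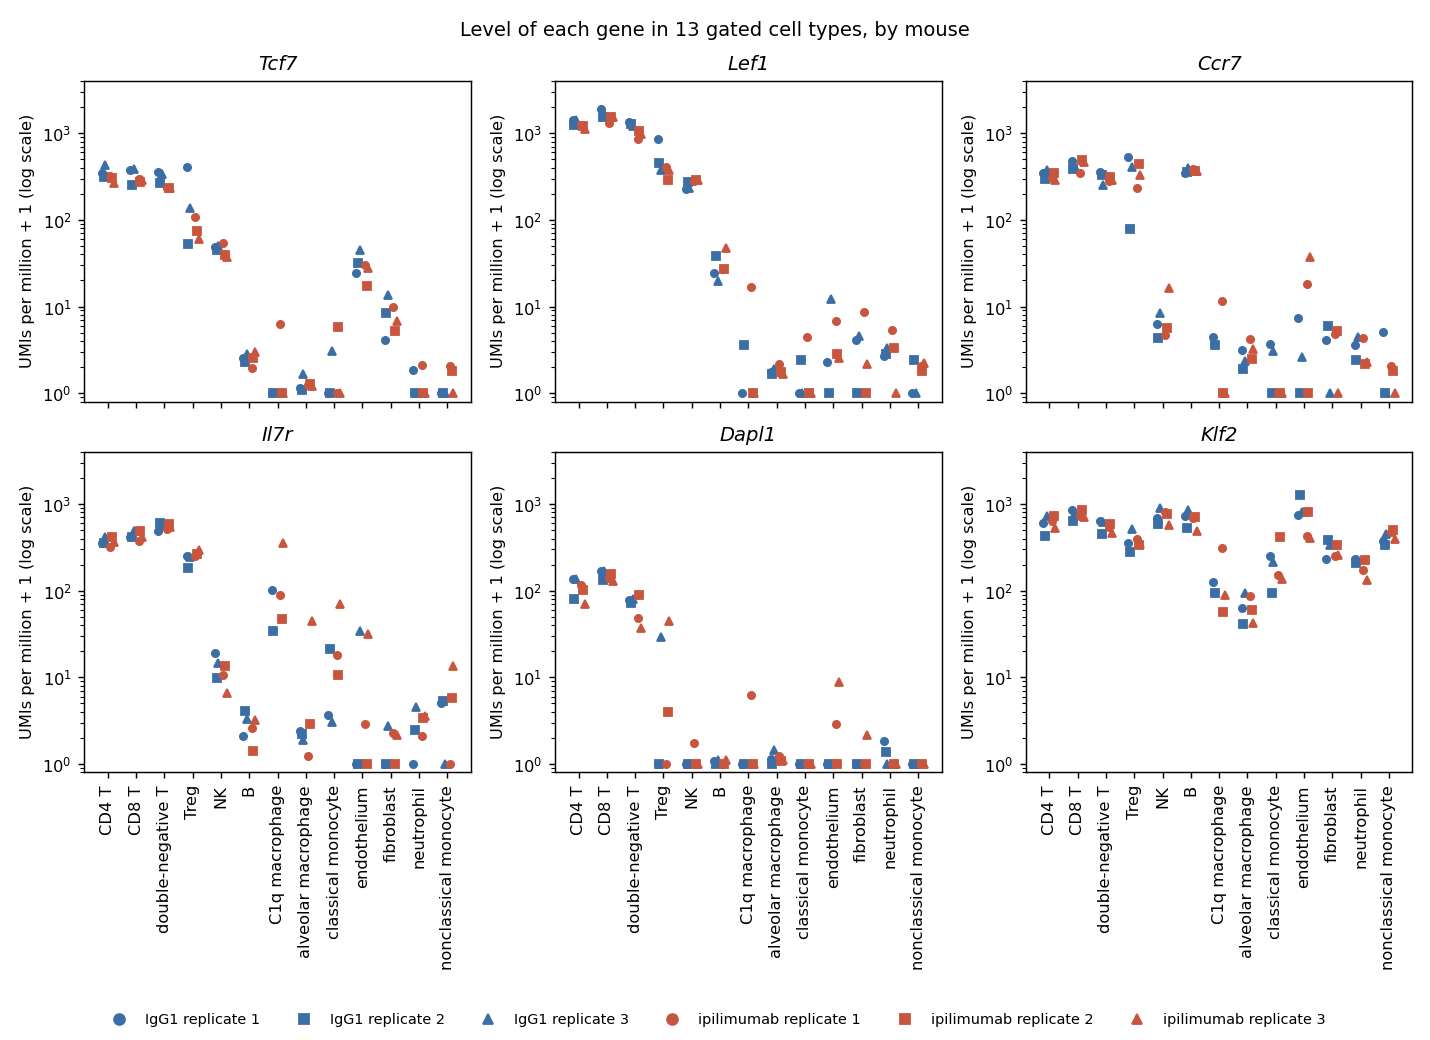
Level of each gene plus 1, in UMIs per 1000000 on log axes, in 13 gated cell types, with 1 point for each mouse with at least 10 cells. Mean Dapl1 is at most 1.63 outside T cells, Ccr7 is high in both B cells (369) and CD8 T cells (427), and Klf2 is spread over lymphoid and endothelial gates.

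The genes whose mean levels over the 13 gates followed each of the 6 most closely were taken from 7110 genes by Pearson's r of log2(CPM + 10). Tcf7 was closest to Thy1 (r = 0.99), Camk4 (0.97) and Cplane1 (0.97). Cd96 (0.98) and Skap1 (0.98) were among the genes nearest to Lef1. Ccr7 was followed by Gm8369 (0.99), Fam169b (0.97) and Dgka (0.96), and Il7r by Ramp3 (0.94), St8sia1 (0.92) and Themis (0.91). Dapl1 was followed by Nsg2 (0.98), Themis (0.96) and Bicdl1 (0.95), and Klf2 by Rfx3 (0.96), Kdm3a (0.95) and Trak2 (0.93). Among the 6, Tcf7 and Lef1 were closest to each other (r = 0.95), and Klf2 and Il7r were least alike (r = 0.26). The gates share libraries, and the r values describe likeness over 13 points.

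Free RNA in the droplets was measured in the empty barcodes of each library. Relative to the level in T cells it was 7.84% to 14.5% for Lef1, 10.4% to 26.7% for Tcf7, 11.4% to 25.7% for Dapl1, 12.9% to 30.4% for Il7r, 39.9% to 92.7% for Ccr7 and 69.7% to 149% for Klf2. The part of free RNA in the levels was not tested.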

How the data were processed

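Lung cells of 6 mice were measured with 10x Genomics Single Cell 3' v3.1 chemistry. The deposited values were raw UMI counts per gene and barcode, written by the authors' alignment to mm10 with Cell Ranger (version 7.0.0 in the submitters' processing notes; the methods and the file headers give other versions); filled and empty barcodes were included. Cells were called per library by a UMI threshold (0.1 of the 99th percentile of the top 5000 barcodes) and a test against ambient RNA (ranks 45000 to 90000, at least 500 UMIs, FDR 0.01). Barcodes with fewer than 200 genes or over 10% mitochondrial UMIs were removed, as were the highest doublet scores (0.8% per 1000 cells). Gates used fixed marker genes, with at least 2 different markers of 1 type outside T cells.

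UMIs were summed per mouse and gate (at least 10 cells) and tested with edgeR 4.0.16 in R 4.3.3 (TMM, quasi-likelihood, low-count filter), with the mouse as block between gates. DESeq2 1.42.0, other filters, cell calls and gates, and leaving out each mouse were alternatives. The fits were tested on simulated data. Shares were compared by exact permutation tests. Named genes were the 6, the called or else the 4 lowest-p genes of the 2 lists, the 3 closest genes over gates, and genes called between treatments in T gates; 2 of these genes are not reported here. The genes and lists were chosen with earlier results of these data known. Python 3.11.15, numpy 2.4.6 and scipy 1.17.1 were used. Intervals of counting are not given, since comparisons rest on the spread between mice.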

Additional observations from a re-analysis of the deposited data

How the results depend on the processing

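No value of the 6 genes for ipilimumab over IgG1 in all T cells passed the threshold under any of the 16 alternatives to each. Tcf7 (-0.41 to -0.29 on the log2 scale; leaving out single mice, -0.51 to -0.25), Lef1 (-0.36 to -0.23; -0.38 to -0.25) and Dapl1 (-0.34 to -0.21; -0.44 to -0.16) kept their sign. The other 3, close to 0, changed sign. Klf2 became 0.025 without T cells carrying markers of another type and 0.0038 at a mitochondrial limit of 5%, and leaving out single mice gave -0.18 to 0.085. The same step gave -0.18 to 0.056 for Ccr7 and -0.18 to 0.043 for Il7r. The cause was not tested.

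The count of genes called between treatments depended on the tool. In all T cells it was 0 by edgeR and became 97 with DESeq2, 27 without the low-count filter, 3 with cells by UMI threshold only and 1 with every barcode of at least 500 genes, with 0 to 22 when single mice were left out (22 without ipilimumab replicate 2, 3 without IgG1 replicate 3 and 1 without IgG1 replicate 1). In CD4 T cells DESeq2 gave 12 and no filter 19. In CD8 T cells DESeq2 gave 24, no filter 276 and keeping doublets 1, with 0 to 13 when single mice were left out (13 without ipilimumab replicate 2 and 10 without ipilimumab replicate 1). In Treg cells the single call became 0 under 4 settings (the UMI threshold, every barcode of at least 500 genes, doublets kept, the mitochondrial limit), 4 with DESeq2, 81 without a filter and 62 without cells carrying other markers, with 0 to 1 when single mice were left out. Leaving out the cells carrying other markers left IgG1 sums of under 10 cells out of the fit, so that 1 IgG1 mouse remained. There Tcf7 was 1.25 and Klf2 0.35, and Ccr7 was called (edgeR adjusted p = 1.7e-07). Its fitted value of 9.01 rests on the sum of IgG1 replicate 2, whose 10 cells held 0 Ccr7 UMIs, and is no bound. The treatment effect in CD8 minus CD4 T cells gave 1 call with the UMI threshold, 2 with every barcode of at least 500 genes and 98 without a filter. Between gates, Treg over CD4 fell from 853 to 548 without cells carrying other markers, with 556 to 1134 when single mice were left out (556 without ipilimumab replicate 1), and the CD8 split fell from 1789 to 1163 at 1 UMI and to 1191 with DESeq2.

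The replicate numbers are shared by the groups. Deviations of same-numbered mice had r values of -0.03, -0.16 and -0.14, and those of differently numbered mice lay between -0.02 and 0.14. Whether same-numbered mice share a processing batch was not tested. The fit with replicate number as a block gave 0 calls in all T cells, 0 in CD4, 2 in Treg and 1 in CD8 T cells, with Tcf7 at -0.34 and Lef1 at -0.30 on the log2 scale in all T cells.

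Other signs turned for values near 0. For the treatment in Treg cells, Ccr7 was -0.0027 with the UMI threshold and -0.077 with DESeq2, and -0.53 to 0.49 when single mice were left out, with Klf2 at -0.36 to 0.17. In CD4 T cells leaving out single mice gave -0.087 to 0.30 for Klf2 and -0.18 to 0.048 for Il7r, and in CD8 T cells -0.11 to 0.10 for Klf2, -0.093 to 0.21 for Ccr7 and -0.19 to 0.073 for Il7r, which was 0.012 without cells carrying other markers. Tcf7 in CD8 over CD4 was -0.099 to 0.0088 and Ccr7 in Treg over CD4 -0.31 to 0.082. In the treatment effect in CD8 minus CD4 T cells, Lef1 was -0.012 without a filter and -0.086 to 0.14 without single mice, and Klf2 0.024 with doublets kept. The ipilimumab minus IgG1 difference in the share of CD4 cells among T cells was -0.0336 points and that of double-positive cells -0.114 with every barcode of at least 500 genes. Leaving out single mice gave -0.908 to 3.66 points for double-negative, -0.0256 to 0.362 for double-positive and -2.85 to 3.91 for Ccl5/Nkg7-positive CD8 cells, which was 0.163 with the UMI threshold. The share with an Il7r UMI rose by 0.324 points when thinned to 1000 UMIs. The unthinned shares were added after seeing the data. Counting intervals do not cover differences between mice, and 3 mice in a group limit all treatment tests.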
